A study of Mus musculus with 2 samples.

Results

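A small set of group 2 innate lymphoid cells (ILC2s) of the fetal mouse lung was chosen by its transcripts of at least 1 of Klrg1, Atp4a, Pla2g7 and Slc38a5. The set held 112 of 1237 non-mitotic ILC2s, of 1744 ILC2s and 8598 singlet barcodes in all. A cell was counted as an ILC2 when it had at least 1 unique molecular identifier (UMI, a tag that marks 1 captured RNA molecule) of Gata3, at least 2 of Il2ra, Il2rb and Tnfrsf18 together and at most 2 of Tyrobp. It was non-mitotic when it had at most 1 UMI of 8 genes of mitosis (Mki67, Top2a, Cdk1, Birc5, Ube2c, Nusap1, Tpx2 and Cenpf). It entered the subset when Klrg1, Atp4a, Pla2g7 and Slc38a5 together gave at least 2 UMIs and Cd7, Dtx1, Trat1 and Pde2a together at most 1. The 4 rule genes were picked with results of these same cells known, so their levels are given below as a description and without a test.

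The cells came from lungs of wild-type fetuses at gestation day 18, whose mothers, 9 weeks old, had received the synthetic glucocorticoid dexamethasone (DEX, 1.3 µg/ml) or PBS in their drinking water since day 12. Values of single litters are always given in the order DEX-1, DEX-2, PBS-1, PBS-2. Each group had 2 litters, and the lungs of 1 litter were pooled, from 8 and 9 fetuses (DEX-1 and DEX-2) and from 5 and 8 (PBS-1 and PBS-2). Viable CD45+ Lin- ST2+ cells were sorted, the litters were marked with 4 hashtag antibodies, and all went into 1 droplet library that was read from the 5′ end of the transcripts. The litter is therefore the replicate. A figure legend of the study gives another number of mothers per group than the labels, which were followed here. The p-values measure the spread between pooled litters handled side by side. DEX was given to the mother, so a response of the fetus and one of the mother cannot be told apart.

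ILC2s are lymphocytes without antigen receptors that need the transcription factors GATA3 and RORα, are activated by IL-33 through ST2 and by other alarmins, and release IL-5, IL-13 and amphiregulin in barrier tissues. They seed the mouse lung around birth. KLRG1 is an inhibitory receptor for cadherins and is used as a marker of mature or activated ILC2s. The other rule genes belong to other trades: Atp4a encodes the catalytic subunit of the gastric proton pump, Pla2g7 the secreted enzyme that inactivates platelet-activating factor, and Slc38a5 a carrier of glutamine and other neutral amino acids.

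The library held 10648 barcodes, and 10409 passed the limits on detected genes and mitochondrial UMIs. Subset cells had a median of 5697 UMIs and 2203.5 genes, against 6654 UMIs and 2378 genes in the other non-mitotic ILC2s. Summed by litter, the subset gave between 150031 and 255360 UMIs and the others between 1896332 and 2487906. A count of 3 UMIs, taken as the lowest level that can be told from 0, was worth 11.7 to 20.0 CPM (UMIs scaled to the same total in each sum) in the subset sums and 1.21 to 1.58 CPM in the others.

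RNA of other cells was present in some barcodes of both classes. At least 10 UMIs of 15 epithelial, endothelial and mesenchymal markers were found in 8 of the 112 subset cells and in 74 of the other 1125. A single PBS-2 barcode of the subset held 41595 UMIs, of which 5338 were Sftpc (surfactant protein C), and it raised the Sftpc level of the PBS-2 subset sum to 35442 CPM against 286 to 441 CPM in the 3 other subset sums. Mast cells and basophils can pass the same sort, and 27 subset cells and 255 others had at least 1 UMI of Ms4a2, Cma1, Mcpt4, Tpsab1, Tpsb2 or Mcpt8, with never more than 2 such UMIs in a subset cell. Calls of named genes that changed without either set of barcodes are given beside the gene. The summed level of the ILC2 markers (Gata3, Rora, Il7r, Il1rl1, Id2, Thy1 and Ptprc) was 2380 to 2948 CPM in the subset sums and 2774 to 2963 CPM in the others, so the ranges overlapped. The rule favours this in part, since it requires at least 1 UMI of Gata3 in every cell of both classes. T cell markers summed to 580 to 849 CPM against 544 to 680 CPM, again with overlap, with at least 10 such UMIs in 11 subset cells and 103 others and with Cd4, Cd8a and Cd8b1 at 0 in the subset. Cd4 was at 0 in the others too. NK cell and ILC1 markers were uneven, at 172, 167, 43.1 and 0 CPM against 16.9 to 24.7 CPM. Of those 7 markers 5 (Ncr1, Klrb1c, Tbx21, Prf1 and Klre1) were at 0 in the subset, and all of these but Prf1 were at 0 in the others too. Gzma, a granzyme gene, was at 91.7 CPM in the pooled subset against 16.8 CPM. The 6 markers of ILC3s were all at 0, against 23.6 to 82.8 CPM in the others, where Il23r and Ncr1 were also at 0. Mesenchymal markers were at 235, 264, 0 and 260 CPM against 15.3 to 39.9 CPM, higher in 3 of 4 litters, with Dcn at 0 in the subset. Endothelial markers were at 13.3 to 73.2 CPM against 95.1 to 217 CPM, and epithelial markers at 476, 360, 501 and 37032 CPM against 4338 to 5563 CPM. Single barcodes weighed on the other sums too, with up to 4840, 6355, 5723 and 3124 UMIs of the 15 tissue markers in 1 barcode. At least 10 epithelial UMIs were found in 3 subset cells and 51 others. Sftpc was detected in 82.1% of subset cells and 79.3% of the others. The sums therefore do not show less epithelial RNA in a typical subset cell. B cell markers summed to 15.7 to 39.2 CPM against 48.0 to 103 CPM, and myeloid markers to 26.1 to 1193 CPM against 102 to 180 CPM. The myeloid list includes Tyrobp, which the rule limits to at most 2 UMIs per cell in both classes. The part of foreign RNA in the subset's profile was not tested beyond these comparisons.

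Most subset cells held few rule transcripts, and no cell held all 4. The number of rule UMIs had a median of 4 and reached 25. Of the non-mitotic ILC2s, 1019 had 0 such UMIs, 106 had 1, 25 had 2 and 21 had 3, so that the cells just outside the rule outnumbered those just inside it. A single rule gene accounted for the call in 42 cells, 2 genes were found in 49 cells and 3 genes in 21 cells. The limit on Cd7, Dtx1, Trat1 and Pde2a removed none of the 112, although 85 non-mitotic ILC2s exceeded it, and 5 subset cells had 1 UMI of those genes. Among mitotic ILC2s, 29 of 507 (5.72%, 95% Wilson interval 4.01 to 8.09%) had 2 or more rule UMIs. All such intervals cover counting error only.

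**Figure D1:**
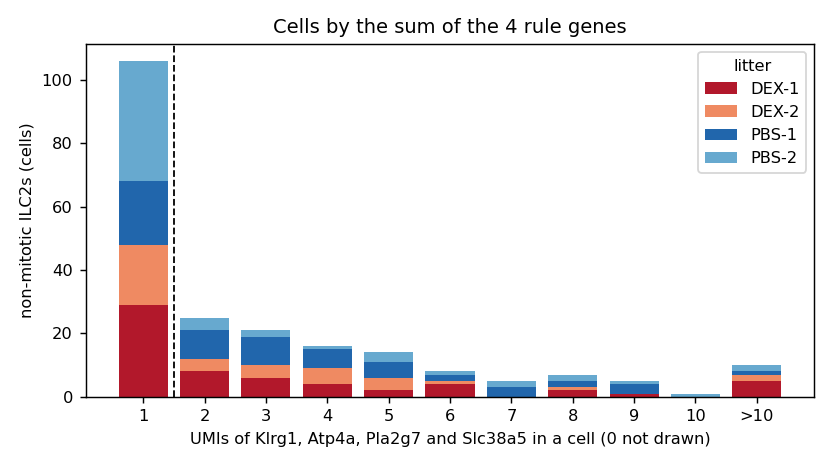
Number of non-mitotic ILC2s (y axis, cells, stacked and coloured by litter) by the summed UMIs of Klrg1, Atp4a, Pla2g7 and Slc38a5 in a cell (x axis; the 1019 cells at 0 are not drawn, and the dashed line marks the limit of the rule). The bars drop from 106 cells at 1 UMI to 25 at 2 and 21 at 3, and all 4 litters have cells on both sides of the line.

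Pla2g7 was the rule gene met most often. It was detected in 73 of 112 cells (65.2%) with 264 UMIs, Atp4a in 64 cells (57.1%) with 150 UMIs, Slc38a5 in 42 cells (37.5%) with 143 UMIs and Klrg1 in 24 cells (21.4%) with 35 UMIs. Klrg1 thus gave 5.91% of the rule UMIs, and the subset was carried by the other 3 genes. Atp4a and Pla2g7 were found together in 40 cells, Pla2g7 and Slc38a5 in 23, Atp4a and Slc38a5 in 19, and Klrg1 shared 13 cells with Pla2g7, 9 with Atp4a and 8 with Slc38a5.

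Each rule gene stood above the other ILC2s in 4 of 4 litters. The rule sets this contrast, since it chose the cells by the summed UMIs of these genes. No other non-mitotic ILC2 held more than 1 such UMI. Pla2g7 (chr17:43568098-43612201, GRCm38) was at 436, 160, 347 and 435 CPM, against 1.55 to 4.05 CPM in the other ILC2s. Atp4a (chr7:30712209-30725534) was at 154, 239, 242 and 145 CPM, against 0.523 to 3.24 CPM. Slc38a5 (chrX:8271133-8280179) was at 297, 259, 89.8 and 152 CPM, against 0 to 1.55 CPM. Klrg1 (chr6:122270596-122282882) differed from these in that the others were not close to 0. Its subset levels were 71.8, 73.2, 27.3 and 19.8 CPM and those of the others 5.68 to 7.29 CPM. The 2 further markers given for the subset behaved less alike. Gata1 (chrX:7959260-7978071), the transcription factor of red cells, mast cells and eosinophils, was at 51.3, 79.8, 81.9 and 59.3 CPM against 2.61 to 10.1 CPM. Lpl (chr8:68880491-68907448), the lipase that frees fatty acids from lipoproteins, was at 128, 13.3, 35.1 and 105 CPM against 4.70 to 8.26 CPM. Its DEX-2 sum was under the level of 3 UMIs.

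The rule genes were also followed in cells chosen by the other 3 genes alone, which gave 105, 88, 74 and 96 cells when Klrg1, Atp4a, Pla2g7 and Slc38a5 were left out in turn. As the 4 genes were picked together from these cells, the values are a description of how strongly they went together, with no test. Slc38a5 was at 222, 234, 31.8 and 138 CPM in cells chosen by the other genes and at 2.01 to 11.7 CPM in the remaining cells, a log2 fold change of 4.35 ± 0.48 (SE, from edgeR's fit). Atp4a was at 112, 150, 208 and 124 CPM against 5.58 to 11.8 CPM (4.06 ± 0.27). Pla2g7 was at 238, 63.6, 291 and 300 CPM against 12.4 to 29.0 CPM (3.41 ± 0.30). Klrg1 showed the smallest difference, at 28.6, 60.0, 16.7 and 20.0 CPM against 6.65 to 11.3 CPM (1.85 ± 0.49), and its value was 1.29 without DEX-2.

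The subset differed from the other non-mitotic ILC2s of the same litters in 388 of 8099 genes tested (4.79%; edgeR's quasi-likelihood test with the litter as a block, two-sided, Benjamini-Hochberg adjusted p below 0.05). Of these, 220 genes (2.72%) were higher and 168 (2.07%) were lower, with a median absolute log2 fold change of 1.28. All 4 subset sums were above all 4 other sums for 5.68% of the tested genes and below for 7.03%. By fold, the named rises were led by Cd59a, Mfap4, Pde3a and Hdc and the named falls by Il5, Ccl5, Nkg7 and Scn7a, while the smallest adjusted p-values belonged to Hdc, Gadd45a and Tcrg-C1. The 23 genes that defined the cells or were given as markers (the rule genes, Lpl and Gata1 included) were left out of the test, and since the rule came from an earlier look at these cells, the calls list genes that go with its 4 genes. All lower genes were below the others in 4 of 4 litters, and 198 of the 220 higher genes were above in 4 of 4. When the 8 barcodes with lung tissue RNA and their counterparts among the others were left out, 342 of the 388 were still called, of 358 that were still tested, and the total rose to 654. Without the cells that held a mast cell UMI 302 of the 388 were called, and by DESeq2 282. When cells were chosen on a random 50% of their UMIs and tested on the other UMIs, 82 of the 312 that were still tested were called and 309 kept their direction. The call count fell to 218 without DEX-1 and to 236 without DEX-2.

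**Figure D2:**
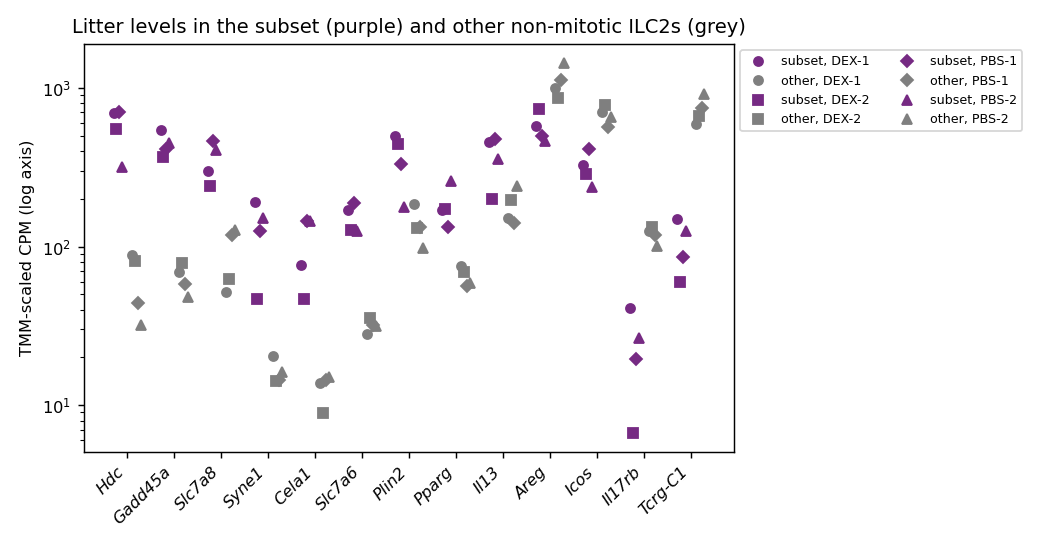
TMM-scaled CPM (y axis, log) of 13 genes (x axis) in the summed UMIs of each litter, in the subset (purple) and in the other non-mitotic ILC2s (grey); the marker shape gives the litter. The 4 subset points of Hdc, Gadd45a, Slc7a6 and Slc7a8 lie above, and those of Tcrg-C1, Icos and Areg below, all 4 points of the other cells, whereas for Il13 the DEX-2 subset point (200 CPM) lies among the others (140 to 243 CPM).

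Hdc encodes the enzyme that makes histamine from histidine. Hdc (chr2:126593667-126619299) was at 697, 552, 706 and 316 CPM in the subset, against 89.0, 81.5, 43.9 and 32.0 CPM in the other cells (log2 fold change 3.25 ± 0.19 SE, adjusted p = 2.65e-07). The lowest subset litter stood well above the highest litter of the others. After each cell was thinned to 2000 UMIs, Hdc was seen in 43.8% of subset cells (34.9 to 53.0%), in 7.31% of the others and in 4.84% of B cells, which should lack it. Without thinning the shares were 64.3%, 17.9% and 11.9%, at median depths of 5697, 6654 and 3537 UMIs. Hdc was called under every alternative tried. Gadd45a (chr6:67035096-67037457), a gene induced by DNA damage and growth arrest, was at 543, 366, 410 and 448 CPM against 48.2 to 78.9 CPM (2.81 ± 0.17, adjusted p = 2.65e-07). Its thinned shares were 48.2% in the subset, 9.71% in the others and 5.91% in B cells.

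Tph1 and Cpa3 were singled out after their values had been seen. Tph1, the first enzyme of serotonin synthesis outside the brain, was at 154, 672, 152 and 198 CPM against 27.4 to 115 CPM (2.05 ± 0.26, adjusted p = 0.000309). Cpa3, a carboxypeptidase of mast cell granules, was at 231, 293, 70.2 and 65.9 CPM against 22.7 to 38.2 CPM (2.46 ± 0.30, adjusted p = 0.000234). Both were higher in 4 of 4 litters. The Tph1 and Cpa3 calls were lost when cells were chosen and tested on separate UMIs, and Tph1 was lower (-1.98) when the rule was applied to thinned cells, which left 26 subset cells. The difference of Tph1 was 2.20 and that of Cpa3 2.44 without the cells that held a mast cell UMI, and both stayed called.

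These genes were set against a mast cell and basophil gate of the same library (at least 1 UMI each of Ms4a2 and Cpa3, at least 3 of Tyrobp and 0 of Gata3; 1532 cells, median 8974.5 UMIs). Hdc in the subset was 9.08% of its level in the gate, Cpa3 2.41%, Tph1 41.2% and Gata1 87.4%. The mast cell proteases Cma1 and Tpsb2 were both at 0.18%. Cma1 was at 0.19% in the other ILC2s and 0.28% in a B cell gate of 202 cells, so its level in the subset was the lowest of the 3 classes. The shares of cells with Cma1 after thinning were likewise 4.46% in the subset, 4.72% in the others and 6.45% in B cells. Gata2, which mast cells express together with Gata1, was at 0.89% of the gate in the subset, 0.61% in the others and 0.97% in B cells. The rule genes took yet other values. Pla2g7 was at 351 CPM in the pooled subset and at 623 CPM in the gate, whereas Atp4a was at 199 against 11.7 CPM, Slc38a5 at 190 against 2.70 CPM and Klrg1 at 46.5 against 1.12 CPM. The 15 mast cell and basophil markers, which include Kit, Hdc and Cpa3, summed to 673 to 1390 CPM in the 4 subset sums and 330 to 505 CPM in the others, and 6 of them (Fcer1a, Tpsab1, Mcpt8, Prss34, Mrgprb1 and Mrgprb2) were at 0 in the subset. Of these, Fcer1a, Mcpt8, Mrgprb1 and Mrgprb2 were at 0 in the others too, where Tpsab1 had 20 UMIs and Prss34 had 9.

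**Figure D3:**
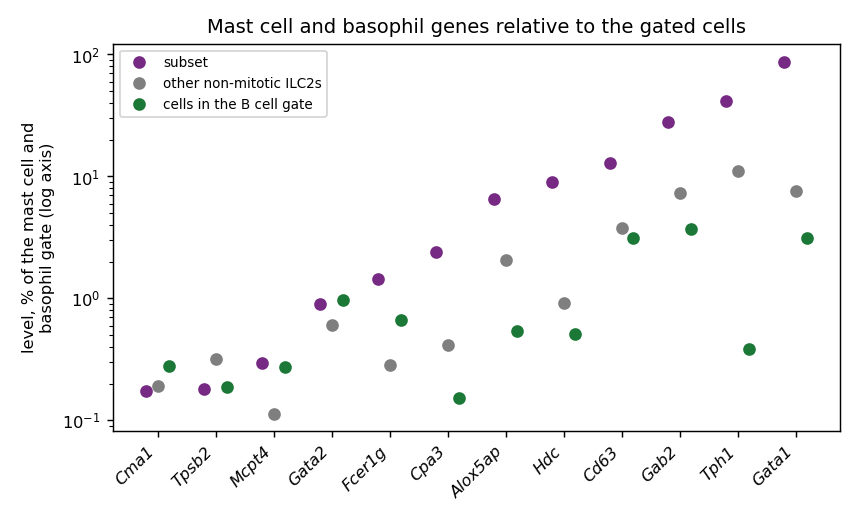
Pooled level of 12 genes as a percentage of the level in the mast cell and basophil gate (y axis, log) for the subset (purple), the other non-mitotic ILC2s (grey) and the B cell gate (green). Gata1, Tph1 and Hdc in the subset reach 87.4%, 41.2% and 9.08%, while Cma1 lies at 0.18%, 0.19% and 0.28% in the 3 classes.

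Cd59a and Cd55 encode surface proteins that protect a cell from complement. Cd59a was at 61.5, 13.3, 46.8 and 52.7 CPM against 2.09 to 5.26 CPM (3.80 ± 0.46, adjusted p = 0.000234), although the DEX-2 sum was under the level of 3 UMIs. Cd55 was at 35.9, 26.6, 46.8 and 59.3 CPM against 3.14 to 6.63 CPM (3.16 ± 0.43, adjusted p = 0.000518). Entpd1 (CD39), which turns ATP and ADP into AMP, was at 36.0 ± 19.5 CPM (SD, n = 4 litters) against 4.69 ± 0.684 CPM (2.89 ± 0.46, adjusted p = 0.00186), and Nt5e (CD73), which turns AMP into adenosine, was at 11.1 ± 7.42 against 74.5 ± 14.0 CPM (-2.82 ± 0.39, adjusted p = 0.000588). The Nt5e call was lost with separate UMIs for choice and test and when the rule was applied to thinned cells. Syne1, a protein that ties the nucleus to the cytoskeleton, was at 190, 46.6, 125 and 152 CPM against 14.1 to 20.4 CPM (2.94 ± 0.27) and held its call under every alternative. Further named rises were Cela1 (2.94 ± 0.28), a pancreatic-type elastase, the phosphodiesterase gene Pde3a (3.32 ± 0.48), the nuclear protein gene Trnp1 (2.93 ± 0.43) and Inka1 (2.79 ± 0.33), a kinase inhibitor.

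Some named rises depended on the barcodes that held lung tissue RNA or could not be tested without them. Mfap4, a protein of elastic fibres made by mesenchymal cells, was at 226, 2089, 27.3 and 850 CPM (3.64 ± 0.58, adjusted p = 0.00176), and its difference was 0.23 (adjusted p = 0.888) without the barcodes that held lung tissue RNA. Adh1 was at 15.4, 193, 7.80 and 72.5 CPM (2.80 ± 0.58, adjusted p = 0.0102) and was too low to be tested without those barcodes, as was Pde3a. Its call was lost without DEX-2.

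Among the lower genes, Tcrg-C1, a constant gene of the T cell receptor gamma chain that ILCs also transcribe, was at 149, 59.9, 85.8 and 125 CPM against 590, 662, 747 and 914 CPM in the other cells (-2.79 ± 0.19, adjusted p = 1.22e-06). Every subset litter was below every litter of the others. After thinning, 15.2% of subset cells, 52.6% of the others and 1.08% of B cells held a Tcrg-C1 UMI. Nkg7, a protein of cytotoxic granules, was at 7.76 ± 8.92 against 78.7 ± 19.2 CPM (-3.30 ± 0.43, adjusted p = 0.000352), and the Src-family kinase gene Lck at 4.88 ± 3.43 against 37.0 ± 3.76 CPM (-2.80 ± 0.50, adjusted p = 0.00384). The chemokine gene Ccl5 had 2 UMIs in all subset cells against 484 in the others, a ratio of levels of 0.0463 (0.00560 to 0.168, exact 95% interval). Such intervals of ratios, here and below, cover counting error of pooled UMIs and not the spread between litters. The Ccl5 call was lost with no litter block and when the rule was applied to thinned cells. The T cell marker list as a whole was not lower in the subset, as given above. Arl5c (-2.83 ± 0.40), a small GTPase gene, and Gm26740 (-2.48 ± 0.36) completed the named falls together with Scn7a (-3.26 ± 0.58) and Cldn5 (-2.53 ± 0.53). Cldn5 is a tight junction gene of endothelium, and neither it nor Scn7a was tested without the barcodes of lung tissue RNA. The Cldn5 call was lost by DESeq2, at 3 rule UMIs, with no litter block and without PBS-1. With separate UMIs for choice and test the calls of Scn7a and Gm26740 were lost. That of Gm26740 was also lost when the rule was applied to thinned cells. Tcrg-C1 and Cd59a have related copies in the genome, and whether reads were split between these was not tested.

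Genes of ILC2 identity split into those at similar levels and those that were lower. Of 17 tested, 0 rose, 6 fell and 11 did not pass, with a median log2 fold change of -0.28 against -0.02 over all tested genes. Of all tested genes 2.72% rose and 2.07% fell, which is the background for the count of every list below. Rora, the receptor-type transcription factor ILC2s depend on, was at 830 ± 68.5 against 714 ± 67.6 CPM (0.22 ± 0.11, adjusted p = 0.355), and Il1rl1, which encodes ST2, at 280 ± 17.7 against 234 ± 40.0 CPM (0.27 ± 0.15, adjusted p = 0.410). The IL-25 receptor subunit gene Il17rb fell, from 119 ± 13.6 CPM in the others to 23.4 ± 14.3 CPM in the subset (-2.32 ± 0.30, adjusted p = 0.000375). Thy1 (-1.14 ± 0.21) and the costimulatory receptor gene Icos (-1.08 ± 0.16) fell, as did Id2 (-0.86 ± 0.16), the repressor that opens the ILC lineage. When the rule was applied to thinned cells, the calls of Il17rb, Thy1, Icos and Id2 were lost. Those of Thy1 and Id2 were also lost with separate UMIs for choice and test. Tcf7, a factor of early ILCs and T cells, had 1 UMI in the subset and 200 in the others (ratio of levels 0.0561, 0.00141 to 0.316), and its call was lost without DEX-2.

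The effector genes of ILC2s, a list that also holds the receptor genes Nmur1, Ramp1 and Calcrl, did not move together. Of 10 effectors tested, 2 rose (Il4 and Il13), 6 fell and 2 did not pass, with a median of -1.26. Il13 was at 456, 200, 476 and 356 CPM in the subset and at 152, 198, 140 and 243 CPM in the others (1.04 ± 0.23, adjusted p = 0.0148). The DEX-2 values were almost equal. The Il13 call was lost without DEX-1 (0.83), without PBS-1 (0.76) and at 3 rule UMIs (0.85), and its direction turned (-0.15) when the rule was applied to thinned cells. Il5 had a single UMI in all 112 cells against 365 in the others, a ratio of levels of 0.0307 (0.000776 to 0.172). Il5 was uneven in the others too, at 15.6, 117, 9.29 and 36.4 CPM, and its call was lost without DEX-2 and with no litter block. Il5 was not tested without the barcodes of lung tissue RNA or without the cells that held a mast cell UMI. Areg, which encodes the epithelial growth factor amphiregulin, was at 579, 738, 499 and 461 CPM against 997, 858, 1129 and 1446 CPM (-0.95 ± 0.17, adjusted p = 0.00445), with no overlap, and was called under every alternative. Csf2, the gene of GM-CSF, was at 82.6 ± 60.3 against 266 ± 86.6 CPM (-1.69 ± 0.31), Lif at 10.5 ± 8.89 against 40.5 ± 7.49 CPM (-1.97 ± 0.46), and Ramp1, part of the receptor for the neuropeptide CGRP, at 20.6 ± 8.77 against 59.0 ± 20.2 CPM (-1.58 ± 0.33). Nmur1, the receptor for neuromedin U, was the other effector gene that fell (-1.57 ± 0.39). The Lif and Ramp1 calls were lost by DESeq2, that of Lif without DEX-1, DEX-2 or PBS-1 and that of Ramp1 without PBS-1. The Csf2 call was lost at 3 rule UMIs and when the rule was applied to thinned cells.

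Activation genes were divided in the same way. Of 16 tested, 2 rose, 3 fell and 11 did not pass, with a median of -0.11. The rises were Nr4a3 (0.89 ± 0.19, adjusted p = 0.0119) and Nr4a2 (0.68 ± 0.13, adjusted p = 0.00546), nuclear receptors induced by stimulation, and the falls were Il18r1 (-1.95 ± 0.52), Myc (-1.42 ± 0.28) and Icos. Without the cells that held a mast cell UMI, Il18r1 (adjusted p = 0.0999) and Myc (adjusted p = 0.0572) were not called, and Il18r1 lost its call under 10 of 15 alternatives in all, DESeq2 and leaving out DEX-1, DEX-2 or PBS-1 among them. Nr4a3 lost its call without PBS-1. Cd69, an early activation marker, was at 113 ± 99.0 against 109 ± 10.8 CPM (-0.05 ± 0.33, adjusted p = 0.978). Only 4 of 14 inhibitory and killer-lectin receptors were high enough to test. Pdcd1, which encodes PD-1, was at 185, 126, 129 and 79.1 CPM against 91.4, 84.1, 20.1 and 21.5 CPM (1.47 ± 0.29, adjusted p = 0.00739), higher in 4 of 4 litters, and was lost when cells were chosen and tested on separate UMIs (0.41). Ctla4 and Lilrb4a, both inhibitory receptors, had 0 UMIs in the subset, which allows up to 3.99 CPM, and were at least 3.39-fold and 5.20-fold lower than in the others. Ctla4 was not called by DESeq2 or without DEX-1, DEX-2 or PBS-1, nor Lilrb4a without DEX-2. The list median was -3.75, or -1.15 with these 2 genes at their bounds.

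Among lipid uptake and storage genes 3 of 20 rose, against 2.72% of all tested genes, 0 fell and 17 did not pass (median 0.18). Plin2, which coats lipid droplets, was at 497, 446, 332 and 178 CPM against 186, 132, 134 and 98.0 CPM (1.36 ± 0.16, adjusted p = 0.000151). The adipogenic nuclear receptor gene Pparg was at 183 ± 52.6 against 64.9 ± 8.99 CPM (1.47 ± 0.20, adjusted p = 0.000426), and Dgat1, the enzyme of the last step of triglyceride synthesis, at 293 ± 130 against 186 ± 84.2 CPM (0.67 ± 0.14, adjusted p = 0.0118). All 3 were higher in 4 of 4 litters. Plin2 was called under every alternative, and Dgat1 was not called without DEX-1, without PBS-1, with no litter block or with separate UMIs for choice and test. The Pparg call was lost with separate UMIs (0.99) and when the rule was applied to thinned cells (0.89). The fatty acid carrier gene Cd36 was at 10.3, 0, 0 and 119 CPM against 14.7 to 36.6 CPM (0.12 ± 0.78, adjusted p = 0.978).

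Among eicosanoid and phospholipase genes 1 of 10 rose, a single call against a background of 2.72%, 0 fell and 9 did not pass (median 0.12). The riser was Alox5ap, the partner protein of 5-lipoxygenase, at 30.8, 379, 74.1 and 283 CPM against 22.7, 24.6, 68.6 and 87.5 CPM (1.73 ± 0.45, adjusted p = 0.0371). Its difference lay mostly in DEX-2 and PBS-2, and the call was lost without either DEX litter and without the cells that held a mast cell UMI (1.12, adjusted p = 0.0750). Alox5 itself was at 5.25 ± 6.44 against 5.49 ± 2.04 CPM and too low to test.

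Amino acid carriers gave 3 rises among 11 tested (background 2.72%), 0 falls and 8 that did not pass (median 0.10). The rises were in other families than that of Slc38a5, whose tested relatives Slc38a1 (-0.06), Slc38a2 (0.11), Slc38a9 (0.08) and Slc38a10 (-0.33) did not pass. Slc7a8 was at 297, 239, 464 and 409 CPM against 51.6, 62.2, 118 and 126 CPM (2.02 ± 0.16, adjusted p = 5.80e-06), and Slc7a6 at 169, 126, 187 and 125 CPM against 27.9, 35.5, 32.0 and 31.6 CPM (2.27 ± 0.22, adjusted p = 2.63e-05). Both are light chains of heteromeric carriers, and the heavy chain they need, Slc3a2, was at 437 ± 33.8 against 204 ± 22.3 CPM (1.11 ± 0.14, adjusted p = 0.000234). The subset litters were above all litters of the others for each of the 3. The Slc3a2 call was lost with separate UMIs for choice and test (0.60) and when the rule was applied to thinned cells (0.45). Slc7a8 and Slc7a6 were called under every alternative. Slc7a5, another light chain, was at 131 ± 66.1 against 67.2 ± 5.75 CPM and did not pass (0.89 ± 0.25, adjusted p = 0.0557), but was called without the barcodes of lung tissue RNA (0.93, adjusted p = 0.00389).

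Among P-type cation pumps, the family of Atp4a, 1 of 10 rose (Atp13a3, 0.93 ± 0.22, adjusted p = 0.0261), 1 fell (the calcium pump gene Atp2b1, -0.70 ± 0.16, adjusted p = 0.0226) and 8 did not pass, with a median of -0.24. Atp13a3 lost its call whichever litter was left out, and Atp2b1 lost it by DESeq2, without DEX-1, DEX-2 or PBS-1 and without the cells that held a mast cell UMI (adjusted p = 0.141). Atp4b encodes the beta subunit with which the gastric pump is assembled and reaches the membrane. It had 0 UMIs in the subset and 0 in the other non-mitotic ILC2s, as had Atp12a, the non-gastric proton pump gene.

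The partners of Gata1 were mostly too low to test. Of 12 GATA factors and partners 3 were tested and 0 were called by edgeR or by DESeq2, with 1 at an unadjusted p under 0.05 (Runx1, 0.50, adjusted p = 0.135) and a median of 0.04. Klf1 and Tal1, erythroid factors, were at 0 in the subset, Gata2 had 6 UMIs there, and the GATA1 cofactor gene Zfpm1 was at 15.6 ± 11.5 against 16.3 ± 7.47 CPM (-0.04 ± 0.50, adjusted p = 0.993).

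Among the glucocorticoid receptor and its widely used targets 3 of 16 rose, 0 fell and 13 did not pass (median -0.07), over litters of both treatments. Sgk1, a kinase, was at 163 ± 110 against 51.8 ± 14.1 CPM (1.55 ± 0.33, adjusted p = 0.0130), the EGF receptor inhibitor gene Errfi1 at 227 ± 110 against 112 ± 34.0 CPM (0.96 ± 0.18) and the cell cycle inhibitor gene Cdkn1a at 444 ± 60.0 against 250 ± 15.9 CPM (0.82 ± 0.13). The Sgk1 and Errfi1 calls were lost without DEX-2 and at 3 rule UMIs. The Cdkn1a call was lost with separate UMIs for choice and test (0.16) and when the rule was applied to thinned cells (0.21). Nr3c1, the receptor gene, was at 328 ± 107 against 338 ± 52.2 CPM (-0.08 ± 0.16, adjusted p = 0.878), and the targets Fkbp5 (-0.11 ± 0.23, adjusted p = 0.889) and Tsc22d3 (-0.18 ± 0.19, adjusted p = 0.738) did not pass.

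Of 14 homing genes 0 rose, 3 fell and 11 did not pass (median -0.30). The falls were Ccr4 (3 UMIs against 296, ratio of levels 0.114, 0.0233 to 0.335), Ccr9 (-1.14 ± 0.27) and Selplg (-0.74 ± 0.13), a ligand of selectins. Ccr4 lost its call without DEX-1, and Ccr9 without DEX-1 or DEX-2. Among 13 progenitor genes Pdcd1 rose, Tcf7 and Il18r1 fell and 10 did not pass (median -0.15), and Kit, the stem cell factor receptor gene, was at 280 ± 73.0 against 266 ± 38.3 CPM (0.06 ± 0.14, adjusted p = 0.912). Of 12 S phase genes 1 fell (Mcm6, -1.10 ± 0.25, adjusted p = 0.0184, not called without DEX-1), 0 rose and 11 did not pass, with a median of -1.15. Among 13 genes of the response to tissue dissociation 3 rose, 0 fell and 10 did not pass (median 0.13), the rises being Btg2 (0.82 ± 0.11), Atf3 (0.99 ± 0.18) and Egr1 (0.58 ± 0.12). Atf3 turned to -0.11 when cells were chosen and tested on separate UMIs and was not called without DEX-2, and Egr1 was not called without DEX-1. Fos of the same list was at 2016 ± 479 against 2244 ± 324 CPM (-0.17 ± 0.13, adjusted p = 0.598), and was called lower without the barcodes of lung tissue RNA (-0.31, adjusted p = 0.0327). The part of cell handling in the genes above was not tested.

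**Figure D4:**
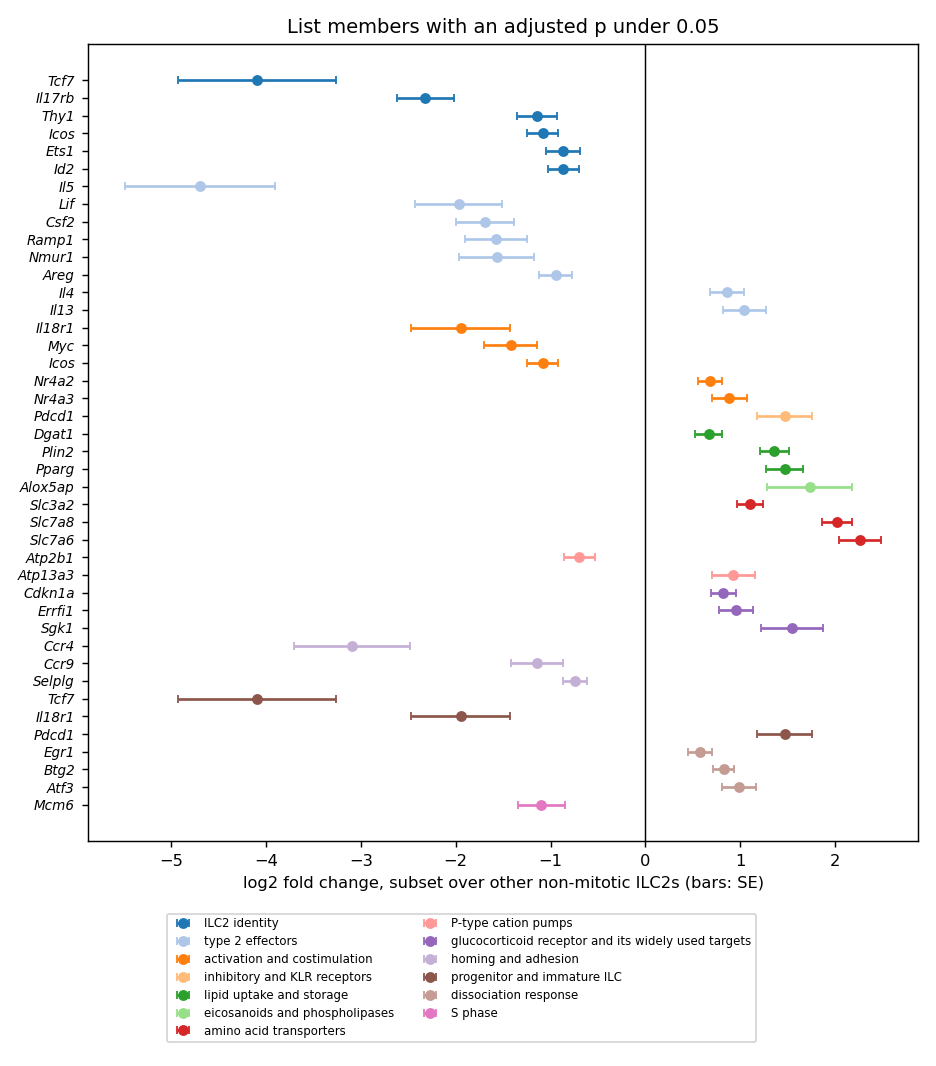
Log2 fold change of the subset over the other non-mitotic ILC2s (x axis; bars show the SE) for each list member with an adjusted p under 0.05, coloured by list; Ctla4 and Lilrb4a, at 0 in the subset, are not drawn. The ILC2 identity and homing genes drawn all lie below 0, from Tcf7 at -4.10 to Selplg at -0.74, and the lipid and amino acid carrier genes all lie above it, from Dgat1 at 0.67 to Slc7a6 at 2.27.

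The levels of some of these genes by the number of rule UMIs, the measure that the rule itself uses, are given as a description. Hdc was at 49.6 CPM in the pooled cells with 0 rule UMIs, 165 with 1, 823 with 2 and 534 with 3 or more, and Gata1 at 3.79, 28.4, 49.9 and 74.3 CPM. The cells with 1 rule UMI, which the rule leaves out, lay between both classes for these 2 genes. Tcrg-C1 was at 743, 674, 162 and 89.6 CPM. Areg was highest in cells with 1 rule UMI, at 1065, 1738, 829 and 488 CPM. Lpl was at 5.48, 10.3, 12.5 and 84.5 CPM, high only in cells with 3 or more. These are pooled levels of 1019, 106, 25 and 87 cells and were not tested.

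The share of the subset did not separate DEX from PBS litters. The subset made up 9.85% of 325 non-mitotic ILC2s (7.06 to 13.6%, Wilson interval) and 7.42% of 283 (4.90 to 11.1%) in the DEX litters, and 13.6% of 294 (10.2 to 18.0%) and 5.67% of 335 (3.66 to 8.69%) in the PBS litters. The highest and the lowest share both belonged to PBS litters. The means were 8.63 ± 1.72% (SD, n = 2) for DEX and 9.64 ± 5.61% (n = 2) for PBS, a difference of -1.01 percentage points (two-sided exact permutation test, p = 1, with 0.333 the smallest p that 4 litters allow). The direction turned to 2.96 points without PBS-1 and to 0.208 without DEX-2. Of all ILC2s the subset was 6.99% and 5.69% in the DEX litters and 9.90% and 3.70% in the PBS litters.

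**Figure D5:**
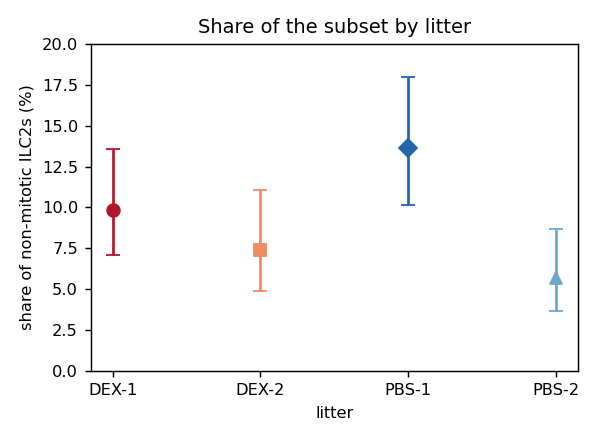
Subset cells as a percentage of non-mitotic ILC2s (y axis) in each litter (x axis), with 95% Wilson intervals that cover counting error only. PBS-1 (13.6%) and PBS-2 (5.67%) enclose both DEX litters (9.85% and 7.42%).

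Within the subset, 0 of 2930 genes tested (0%) passed an adjusted p below 0.05 between DEX and PBS by edgeR or by DESeq2. At an unadjusted p under 0.05 there were 168 genes (5.73%) by edgeR and 39 by DESeq2. The litters of the groups did not overlap for 1066 genes (36.4%). The count rose to 82 when PBS-1 was left out and to 46 when PBS-2 was, where a lone PBS litter was assumed to vary like the DEX litters. Without the barcodes of lung tissue RNA 2 genes were called. Nr4a2 was at 564 and 419 CPM in the DEX sums and 1089 and 1048 CPM in the PBS sums before these barcodes were removed, and its log2 difference without them was -1.37 ± 0.18 (adjusted p = 0.0384). Rab27b, a GTPase of granule release, was at 466 and 446 against 176 and 191 CPM and differed by 1.58 ± 0.23 (adjusted p = 0.0459).

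The rule genes in DEX and PBS litters are given as a description. Klrg1 was at 72.5 ± 0.996 CPM (SD, n = 2) with DEX and 23.5 ± 5.33 CPM with PBS, and Slc38a5 at 278 ± 26.8 and 121 ± 43.7 CPM, in both cases without overlap. Such a lack of overlap was common, at 36.4% of the genes tested in the subset. The rule also chose the cells by Klrg1 and Slc38a5, and a DEX difference in them was not tested. The PBS-2 level of Klrg1, 19.8 CPM, was about the lowest that could be told from absence in that sum (20.0 CPM). Atp4a was at 197 ± 60.6 and 193 ± 68.5 CPM, Pla2g7 at 298 ± 195 and 391 ± 62.0 CPM, Gata1 at 65.5 ± 20.2 and 70.6 ± 16.0 CPM and Lpl at 70.7 ± 81.2 and 70.3 ± 49.7 CPM, all with overlap. A pooled sum cannot tell fewer cells with a transcript from less transcript per cell.

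The other non-mitotic ILC2s, gave 89 called genes of 9682 between DEX and PBS (0.919%), 54 (0.558%) higher and 35 (0.361%) lower with DEX, and 68 of the 89 were tested in the subset. Pdcd1 was higher by 2.08 (adjusted p = 0.000112) in the others and by 0.52 (adjusted p = 0.861) in the subset. Tnfrsf9, a costimulatory receptor gene, was higher by 1.57 (adjusted p = 5.27e-05) and at 492, 293, 222 and 39.5 CPM in the subset, a difference of 1.45 (adjusted p = 0.791). Dgat1 differed by 1.19 (adjusted p = 0.00155) and 1.03 (adjusted p = 0.491), Slc7a8 by -1.10 (adjusted p = 0.00227) and -0.74 (adjusted p = 0.601), and Nr4a2 by -0.64 (adjusted p = 0.00945) and -1.15 (adjusted p = 0.227). For these 5 genes the values had the same sign in both classes, as they had for Errfi1 (0.70 and 0.54) and Cysltr1 (-0.83 and -0.66). Ptgs2 differed by 0.48 in the others (adjusted p = 0.0354) and by -0.13 in the subset (adjusted p = 0.986). The signs over all 68 genes are not given here. Alox5ap differed by -1.72 in the others (adjusted p = 0.00155) and by 0.15 in the subset (adjusted p = 0.996). Hdc was higher with DEX by 1.19 in the others (adjusted p = 0.00579) and differed by 0.23 in the subset (adjusted p = 0.977). The difference between both responses was tested directly, and 0 of 9163 genes (0%) passed by edgeR or by DESeq2, with 346 (3.78%) and 67 at an unadjusted p under 0.05. For Pdcd1 it was -1.52 ± 0.44 (adjusted p = 0.685), for Alox5ap 1.70 ± 0.66 (adjusted p = 1) and for Hdc -0.83 (adjusted p = 1), so a response particular to the subset was not shown.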

How the data were processed

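Per the labels, the authors ran Cell Ranger 7 on reads of a Chromium 5′ gene expression library and a hashtag library, on mm10. The deposited file is a matrix of UMI counts, not normalized, of 32285 genes and the hashtags in 10648 barcodes. From there, barcodes with at least 200 genes and at most 5% mitochondrial UMIs were kept, and a barcode was assigned to a litter when its top hashtag had at least 10 UMIs and 3 times the next. Barcodes with 2 strong hashtags were dropped as doublets by this step, and no doublet caller was run, so doublets within 1 litter remain. Hashtag antibodies were matched to litters by the number in their names.

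UMIs were summed by litter and class and tested with edgeR 4.0.16 in R 4.3.3 (filterByExpr, TMM, quasi-likelihood F-test, two-sided, Benjamini-Hochberg over all genes tested, called below 0.05), with the litter as a block where both classes of each litter entered. Levels are TMM-scaled CPM, with these exceptions in plain CPM. They are pooled levels, summed levels of marker lists, levels in cells chosen by 3 rule genes, and the level of 3 UMIs. Shares were compared by an exact permutation test over litters. The procedures were tested on simulated data with known changes. DESeq2 1.42.0, RLE scaling, no filter on low genes, stricter hashtags, a mitochondrial limit of 10%, 3 rule UMIs, no Tyrobp, thinning to 2000 UMIs, separate UMIs for choice and test, and leaving out each litter were tried as alternatives. Leaving out barcodes with lung tissue or mast cell RNA was added after the data were seen.

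The members and the gene lists were chosen with earlier results of these data known. Named genes were the 12 largest rises and 10 largest falls among called genes that went the same way in 4 of 4 litters and averaged at least 20 CPM, up to 4 called members of each list by size, the members that define a list's name, and the rule genes, Lpl and Gata1. Tph1 and Cpa3 were named after their values were seen. Gene positions are from GENCODE M21 (GRCm38). A few genes that the rule would name are not reported here.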

Additional observations from a re-analysis of the deposited data

How the results depend on the processing

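The 388 genes that set the subset apart became 653 with no filter on low genes, 654 without the barcodes of lung tissue RNA, 88 when the rule was applied after thinning to 2000 UMIs (26 subset cells), 130 when choice and test used separate UMIs, and 218 to 434 without single litters. The causes were not tested, but thinning and separate UMIs leave fewer cells. Of 965 values of 63 named genes under the alternatives, 833 kept direction and call, 125 lost the call and 7 turned: Atf3 (-0.11), Rora (-0.036) and Il7r (0.19) with separate UMIs, Il13 (-0.15) and Tph1 (-1.98) after thinning, and Kit with no filter (-0.044) and without DEX-1 (-0.0753 to 0.156 without single litters). Without each litter in turn, 37 of 59 called genes kept their call. In cells chosen by the other 3 rule genes, the difference of Klrg1 was 1.65 with stricter hashtags and 1.29 to 2.06 without single litters, and that of Pla2g7 was 1.63 after thinning, which left no value for Klrg1 and Slc38a5.

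DEX against PBS in the subset gave 87 genes with no filter, 2 without lung tissue RNA and 0 to 82 without single litters. In the other ILC2s the count was 346 with no filter, 135 with stricter hashtags, 134 without lung tissue RNA, 153 without mast cell UMIs and 121 to 311 without single litters. The difference between both responses gave 45 genes with no filter, 3 after thinning, 10 without lung tissue RNA and 33 to 71 without single litters. The share difference ranged from -4.97 to 2.96 percentage points without single litters, turning to 0.208 without DEX-2 and 2.96 without PBS-1. Replicate numbers are shared by DEX and PBS litters as names only: same-numbered litters deviated together with r = 0.167 across 2930 genes in the subset and 0.0351 across 9682 in the others. With the litter number as a replicate block the counts were 0 in the subset and 92 in the others, and with no replicate block 382 genes set the subset apart. The subset's small sums and 2 litters a group limit what DEX differences could be seen.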
